A study of Mus musculus with 21 samples.

Results

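Tamoxifen can change a gene by different amounts in different cells of the same gland, and the values below are those differences. For each gene, the change with tamoxifen in Lgr5GFP high cells was set against the change in Lgr5GFP negative cells, as the tamoxifen minus control difference in high cells minus the same difference in negative cells. The arrays were taken by their titles and comprised 14 of the 21 in the series: 4 tamoxifen high, 3 control high, 4 tamoxifen negative and 3 control negative. Of 22180 genes tested, 55 differed between the populations at a Benjamini-Hochberg adjusted p under 0.05 (0.248% of all genes).

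The study measured RNA on microarrays in cells of the mouse stomach corpus, the acid- and pepsinogen-secreting body of the stomach. Cells were sorted by flow cytometry on green fluorescence from the Lgr5 gene into high, low and negative populations, and all groups came from mice carrying this reporter. Tamoxifen mice had received 0.27 mg per g of body weight, given by injection 24 hours before the cells were taken, and control mice were marked as uninjected. No vehicle group was among the samples analysed here, so effects of the drug, of being injected and of the sorting run cannot be told apart. Strain, sex and age of the mice were not given in the sources used here. The series' design text calls the arrays of a group technical replicates from single sorting runs, so the p-values may measure technical spread and not the spread between mice.

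Lgr5 encodes a receptor for R-spondins, the secreted proteins that strengthen Wnt signalling, and in the adult corpus it marks a subset of chief cells at the gland base. High doses of tamoxifen are known to be toxic to parietal cells, the acid-secreting cells, within days, and the rest of the gland then turns on repair and metaplasia genes. A sort on fluorescence does not isolate 1 cell type, and the negative gate takes in surface pit, mucous neck, parietal and endocrine cells together with any blood, mast or stromal cells that passed the other gates.

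Lgr5 itself followed the gates. Its log2 signal ran from 8.40 to 9.16 on control high arrays, from 8.05 to 8.74 on tamoxifen high arrays, from 4.06 to 4.83 on control negative arrays and from 4.42 to 4.81 on tamoxifen negative arrays. High and negative arrays did not overlap under either treatment, and the tamoxifen effect on Lgr5 was not called different between them (difference -0.53, SE 0.29, limma adjusted p = 0.70). The source label of the control negative arrays reads as low, while their titles and population labels read negative. Their Lgr5 level lay below the control low range of 7.48 to 7.72.

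All values are log2 signal, so 1 unit is a doubling. Signal from the 1086 olfactory receptor genes, which gastric cells are not known to use, served as a guide to background, with a median of 2.52 and a 95th percentile of 4.14. A level at or under 4.14 is called near background here, and a fold against such a group is given as a lower bound computed against that percentile. Array medians ran from 3.95 to 4.25, and arrays of a group correlated at 0.926 to 0.985 across genes. The number of arrays limits the precision, and the median SE of a difference between the 2 effects was 0.29. The mean over 11 tuft cell markers was highest in the high gate, at 9.74 to 10.63 on control high and 6.32 to 7.37 on control negative arrays. The array tamoxifen high 1 stood apart from its group, with a mean of 7.17 over the tuft markers against 8.72 to 9.81 on the other 3 arrays, and 6.83 over 16 endocrine markers against 4.50 to 5.23.

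Of the 55 genes, 22 had the larger (more positive) change in high cells (0.0992% of all genes) and 33 in negative cells (0.149%). A further count without adjustment gave 1794 of all 22180 genes at p under 0.05 in the limma fit. That share is the one to set beside the unadjusted counts given for lists below. The median difference over all genes was 0.01. The tamoxifen effect by itself was called for 606 genes in high cells (2.73%), with 376 higher (1.7%) and 230 lower (1.04%), and for 515 in negative cells (2.32%), with 359 higher (1.62%) and 156 lower (0.703%). These calls had 80 genes in common, which was 13.2% of the high calls and 15.5% of the negative calls, and 79 of the 80 moved in the same direction. Few genes called in a single population passed the test of the difference. Of 526 genes called in high cells and not in negative cells, 16 passed the test of the difference, and of 435 called in negative cells and not in high cells, 36 did.

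**Figure D1:**
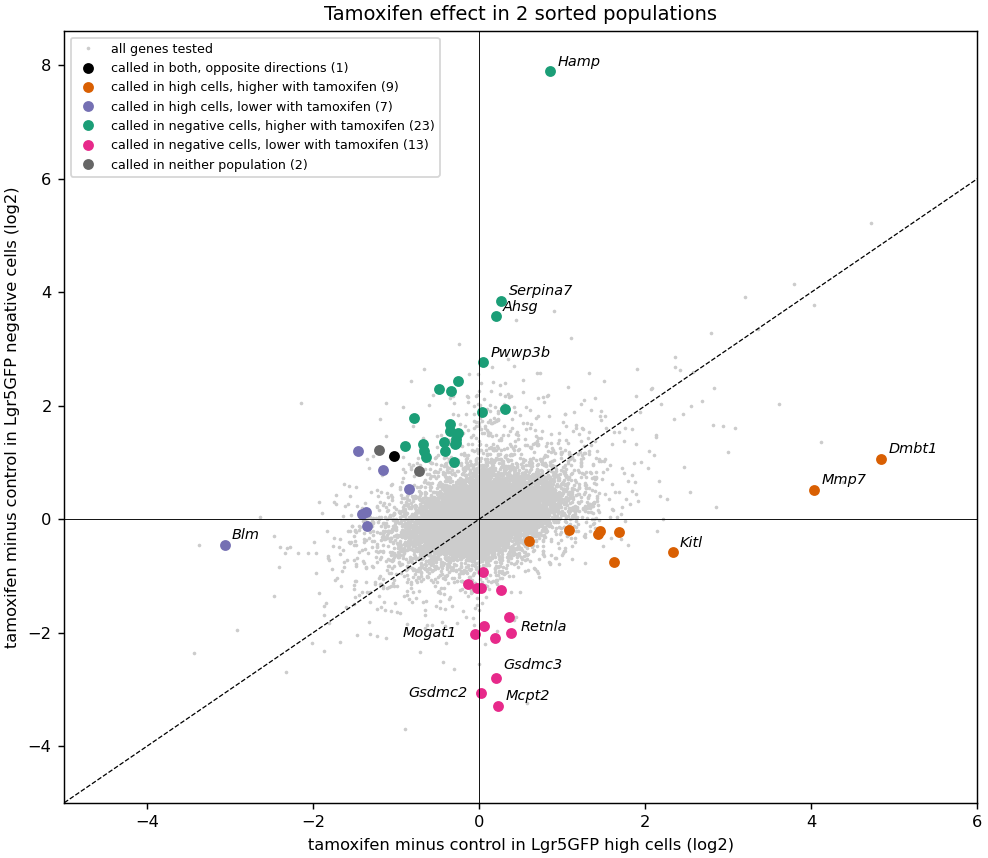
Tamoxifen minus control (log2) in Lgr5GFP high cells (horizontal axis) against Lgr5GFP negative cells (vertical axis) for all genes tested (grey) and the 55 genes whose effects differed (coloured by the population and direction in which the effect was called). Genes on the dashed line changed equally. The coloured genes lie mostly along the axes, with Hamp alone near 8 in negative cells and Dmbt1 and Mmp7 above 4 in high cells.

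The 55 genes fell into groups by the population that moved. In negative cells 23 rose and 13 fell with no call in high cells, in high cells 9 rose and 7 fell with no call in negative cells, Sema3e was called in both with opposite signs, and Dnajc12 and Sgms2 were called in neither. The size of the effect was larger in negative cells for 39 and in high cells for 16. The 2 effects had opposite signs for 42 genes and the same sign for 13. The difference that picked these genes favours opposite signs, and the shares over all genes for the size and sign splits were not counted. Tamoxifen and control arrays did not overlap in negative cells for 47 of the 55, against 15.3% of all genes, and in high cells for 25, against 10.4%. The number in an array's title was taken as its sorting run, and whether that number pairs arrays is uncertain. By that number, 0 of 6 tamoxifen arrays correlated best with their own run. The high minus negative gap within such a run (3 control runs and 3 tamoxifen runs held both) did not overlap between treatments for 55 of 55 genes, against 16.2% of all genes. These counts use the same arrays as the calls. The gap between populations was smaller after tamoxifen for 31 genes and larger for 24, and the share over all genes was not counted.

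Hamp showed the largest difference of any called gene. It encodes hepcidin, the hormone that lowers iron export by causing the loss of ferroportin. On control negative arrays its log2 signal was 2.50, 2.57 and 1.99, and on tamoxifen negative arrays it was 10.13, 10.82, 10.09 and 9.94. On control high arrays it was 2.36, 1.62 and 2.17, and on tamoxifen high arrays 2.24, 2.86, 3.90 and 2.64. Every tamoxifen negative array was far above background, while the other 3 of these groups stayed near it. In negative cells Hamp rose at least 68.7-fold (log2 change 7.89, SE 0.39, adjusted p = 1.5e-10), and the change in high cells was 0.86 (SE 0.39, adjusted p = 0.27). The difference was -7.04 (SE 0.55, adjusted p = 8.9e-07), and it was called in all 14 fits that each left out 1 array. In low cells the mean was 2.20 in control and 7.16 after tamoxifen. In sorted bulk samples such as these, more cells that make a transcript and more transcript per cell cannot be told apart, and the same holds for decreases.

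Mouse has a near-identical neighbour of Hamp, Hamp2, which is named here because of that likeness after its values were seen. Hamp2 differed by -2.02 (SE 0.81, adjusted p = 0.47) and was not called. Its mean signal was 6.31 in control negative and 7.41 in tamoxifen negative cells, and 6.82 and 5.89 in control and tamoxifen high cells. Probes can cross-hybridise between copies this alike, so the split between them is uncertain. The stretches of the promoters that align, from RefSeq on build GRCm38.p6, are shown because the copies that diverge in signal are nearly the same in sequence there. Capitals mark GGCGCC, the core of the BMP response element, and TTCNNNGAA, the STAT element. In liver, BMP signalling and STAT3 are the textbook inducers of hepcidin. Both windows are on chromosome 7, minus strand, written 5′ to 3′, chr7:30944073-30944172 for Hamp and chr7:30924222-30924321 for Hamp2, and they begin 143 and 140 bases before the start site.
Hamp: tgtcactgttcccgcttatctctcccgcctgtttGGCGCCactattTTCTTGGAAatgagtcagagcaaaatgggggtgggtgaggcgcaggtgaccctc
Hamp2: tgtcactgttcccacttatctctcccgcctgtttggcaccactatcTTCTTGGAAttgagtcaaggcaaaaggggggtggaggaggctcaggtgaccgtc
The windows had 89 of 100 bases in common. One of the 11 substitutions, G38A (the Hamp base first, counted from 1 at the 5′ end of the window), falls in the GGCGCC core, and the STAT element is in both. These are descriptions of letters, and no binding was measured.

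Promoters, taken as 250 bases before to 50 after the start site, were found in RefSeq for 43 of the 55 genes. GGCGCC, searched on both strands, was in a promoter of 9 of the 43 (20.9%) and of 13.4% of all 27025 genes with a promoter. TTCNNNGAA was in 5 (11.6%) and in 9.55% of all. The full estrogen response element was in 0 of the 43 and in 0.074% of all. Of the 14 genes in a BMP pathway list, 0 had a called difference in the limma fit and 1 had an unadjusted p under 0.05, with a median of -0.05. In negative cells Id1, a common BMP target, had a change of 0.53 (adjusted p = 0.53), and Smad7 one of 0.36 (adjusted p = 0.64). Socs3, a feedback gene of STAT3, rose in both populations, by 1.90 in high cells (adjusted p = 0.0067) and 2.65 in negative cells (adjusted p = 0.00034), with no called difference (adjusted p = 0.81). Neither pathway's activity was measured, and the part of either in the rise of Hamp was not tested.

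Serpina7, Ahsg and Vtn, which encode plasma proteins best known from liver, also rose in negative cells. Habp2, another called gene for a plasma protein, fell there and is described further on. The grouping by role here and below was made after the values were seen. Serpina7, which encodes the thyroxine carrier of plasma, was at 3.73, 3.78 and 4.72 on control negative arrays and at 8.49, 8.08, 7.63 and 7.47 on tamoxifen negative arrays. On high arrays it stayed between 2.87 and 3.68. The tamoxifen negative arrays lay above every other array of the 4 groups, of which control negative 3 alone was above the background percentile. Serpina7 rose at least 13.7-fold in negative cells, and the difference was -3.58 (SE 0.37, adjusted p = 5.1e-05), called in all 14 fits with 1 array left out. In low cells its mean was 3.79 in control and 3.07 after tamoxifen, both near background.

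Ahsg, the mineral-binding plasma protein fetuin-A, was at 5.09, 5.52 and 5.74 in control negative cells and at 10.00, 9.17, 8.96 and 7.97 in tamoxifen negative cells. High cells had 5.37, 4.71 and 4.78 in control and at 4.39, 4.95, 6.16 and 5.11 after tamoxifen. The negative groups were fully apart and the high groups overlapped. Ahsg rose 11.9-fold in negative cells (adjusted p = 7.6e-05), with a difference of -3.38 (SE 0.60, adjusted p = 0.02) that was called in 10 of the 14 fits and was weakest without control negative 1 (adjusted p = 0.08). It was not called with sorting run as a term in the fit (adjusted p = 0.062). Vtn, the adhesion protein vitronectin, went from 8.40 ± 0.22 (SD, n = 3) to 10.70 ± 1.01 (SD, n = 4) in negative cells and from 5.12 ± 0.40 (SD, n = 3) to 4.63 ± 0.39 (SD, n = 4) in high cells. Its difference of -2.78 (SE 0.58, adjusted p = 0.047) was near the threshold and was called in 2 of the 14 fits (adjusted p = 0.15 without control high 1, and 0.055 with the Replicate number of the titles as a term). The mean of Vtn went in mean from 8.22 to 5.46 in low cells. Ttr, the retinol and thyroxine carrier transthyretin, behaved differently. In high cells it was at 11.88, 12.21 and 12.15 in control and at 10.89, 10.75, 10.25 and 11.04 after tamoxifen, while negative cells ranged from 11.28 to 11.64 over both treatments. Ttr fell 2.55-fold in high cells (adjusted p = 0.00019), and the difference was -1.22 (SE 0.24, adjusted p = 0.035, called in 5 of the 14 fits, adjusted p = 0.067 with sorting run as a term).

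Pwwp3b, a PWWP domain protein, was near background in every group but 1. It was at 3.71, 4.17 and 4.03 on control negative arrays and at 6.89, 7.61, 6.70 and 5.73 on tamoxifen negative arrays. On high arrays it stayed between 3.01 and 3.49. The difference was -2.71 (SE 0.41, adjusted p = 0.0052) and was called in all 14 fits.

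Nrp1, Efnb2, Gucy2c and Il22ra1, which encode surface receptors or ligands, rose in negative cells as well. Nrp1, a co-receptor for semaphorins and VEGF, had a mean of 4.22 ± 0.32 (SD, n = 3) in control negative cells and of 6.66 ± 1.25 (SD, n = 4) after tamoxifen, 5.43-fold higher, and was near background in high cells (3.22 in control and 2.97 after tamoxifen). Its difference was -2.69 (SE 0.56, adjusted p = 0.047, called in 2 of the 14 fits, adjusted p = 0.17 without control negative 1). Efnb2, an ephrin ligand, went from 4.64 to 5.93 in negative cells and from 6.70 to 5.81 in high cells, so that a control gap of 2.06 between the populations became -0.12 (difference -2.18, SE 0.40, adjusted p = 0.023, called in 7 of the 14 fits, weakest without control negative 1, adjusted p = 0.072 with sorting run as a term). Gucy2c, the receptor for guanylin and uroguanylin, went from 4.81 to 6.59 in negative cells and from 5.72 to 4.94 in high cells (difference -2.56, SE 0.47, adjusted p = 0.022, called in 7 of the 14 fits, weakest without control high 2). Il22ra1, the epithelial receptor chain for interleukin 22, went from 4.63 to 5.83 in negative cells and from 4.82 to 4.16 in high cells (difference -1.86, SE 0.36, adjusted p = 0.035, called in 6 of the 14 fits, adjusted p = 0.065 with sorting run as a term). For Efnb2, Gucy2c and Il22ra1 the population with the higher mean was the high one in control mice and the negative one in tamoxifen mice. Other called genes, such as Lbh and Sema3e, did the same. The populations overlapped on tamoxifen arrays for Efnb2 and on control arrays for Il22ra1.

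From the called genes that rose in negative cells, 6 known from neurons or secretory cells were picked out after their values were seen. They are not a full count of such genes. Unc79, a part of the NALCN sodium leak channel complex, rose 3.18-fold in negative cells (difference -2.02, SE 0.40, adjusted p = 0.039). Syt5, a synaptotagmin of secretory vesicles, rose 2.87-fold (difference -1.78, adjusted p = 0.011), and Abcc8, the sulfonylurea receptor subunit of KATP channels, rose 2.56-fold (difference -1.78, adjusted p = 0.022). Ina, a neuronal intermediate filament, rose at least 2.12-fold (difference -1.90, adjusted p = 0.018), and Asic2, an acid-sensing ion channel, at least 2.4-fold (difference -1.61, adjusted p = 0.039). Chrnb4, a nicotinic acetylcholine receptor subunit, went from 4.30 to 5.39 in negative cells (difference -1.72, adjusted p = 0.046). In high cells all 6 of these genes were lower after tamoxifen than in control, by 0.26 to 0.64, and none of those decreases was called. Ina and Asic2 were near background in both high groups, and Unc79 was near it after tamoxifen. The difference that picked these genes also favours a lower change in high cells. The wider list of 18 secretory vesicle and granule genes had 0 called differences by limma (5 at an unadjusted p under 0.05), 10 of 18 above 0, a median difference of 0.08 and a median change of 0.02 in negative cells. Leaving out 1 array kept the call in 13 of 14 fits for Syt5 (adjusted p = 0.062 without control negative 2), 10 for Ina, 9 for Abcc8, 6 for Unc79 and 4 each for Asic2 and Chrnb4.

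Markers of endocrine cells moved beside these genes. The mean over the 16 endocrine markers ran from 6.30 to 7.01 on control negative arrays and from 7.08 to 8.46 on tamoxifen negative arrays. These ranges were only narrowly apart. Other lists were apart in negative cells too, among them the chief cell, surface pit cell and pancreatic acinar lists. In high cells the endocrine mean ran from 5.02 to 5.55 in control and from 4.50 to 6.83 after tamoxifen, the top value being tamoxifen high 1. The median difference over the list was -1.79, against 0.01 over all genes, and 12 of the 16 members were below 0. In the limma fit 0 of the 16 passed the test of the difference, and 6 had an unadjusted p under 0.05. Hdc, the histamine-synthesising enzyme of enterochromaffin-like cells, came closest, with a mean of 7.57 in control negative and 9.69 in tamoxifen negative cells and a difference of -2.48 (SE 0.59, adjusted p = 0.086). Chga, the granule protein chromogranin A, had means of 10.10 and 12.27 in negative cells (adjusted p of the difference 0.72). Neurod1 and Pax6 were near background in all 4 groups. The list's median ran from -2.15 without tamoxifen high 1 to -0.97 without tamoxifen high 4. The part of endocrine cell number in the results for Syt5, Abcc8 and the other genes of the preceding paragraph was not tested.

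The remaining genes that rose in negative cells have varied roles. Lbh, a regulator of transcription, went from 7.48 to 9.74 in negative cells and from 9.14 to 8.80 in high cells (difference -2.60, SE 0.55, adjusted p = 0.047, called in 3 of the 14 fits). Ptf1a, the transcription factor of pancreatic acinar development, went from 4.67 to 6.62 in negative cells and stayed near background in high cells (difference -1.64, adjusted p = 0.047, called in 2 of the 14 fits). A second Ptf1a probe set differed by -0.64. Slc27a2, which activates and imports long-chain fatty acids, rose at least 2.4-fold (difference -2.01, adjusted p = 0.047, called in 3 of the 14 fits), while its other probe set, near background throughout, differed by -0.12. Tmtc1, Clip3, Ahi1, Abi2 and Pcdhb17 had differences of -1.86, -1.61, -1.62, -1.31 and -1.70. Of the 23 genes that rose in negative cells, 8 were near background in both high groups and 4 had a higher mean after tamoxifen in low cells (Hamp, Il22ra1, Efnb2 and Abi2), with a median change of -0.32 there. How many of all genes had a higher mean in tamoxifen low cells was not counted.

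**Figure D2:**
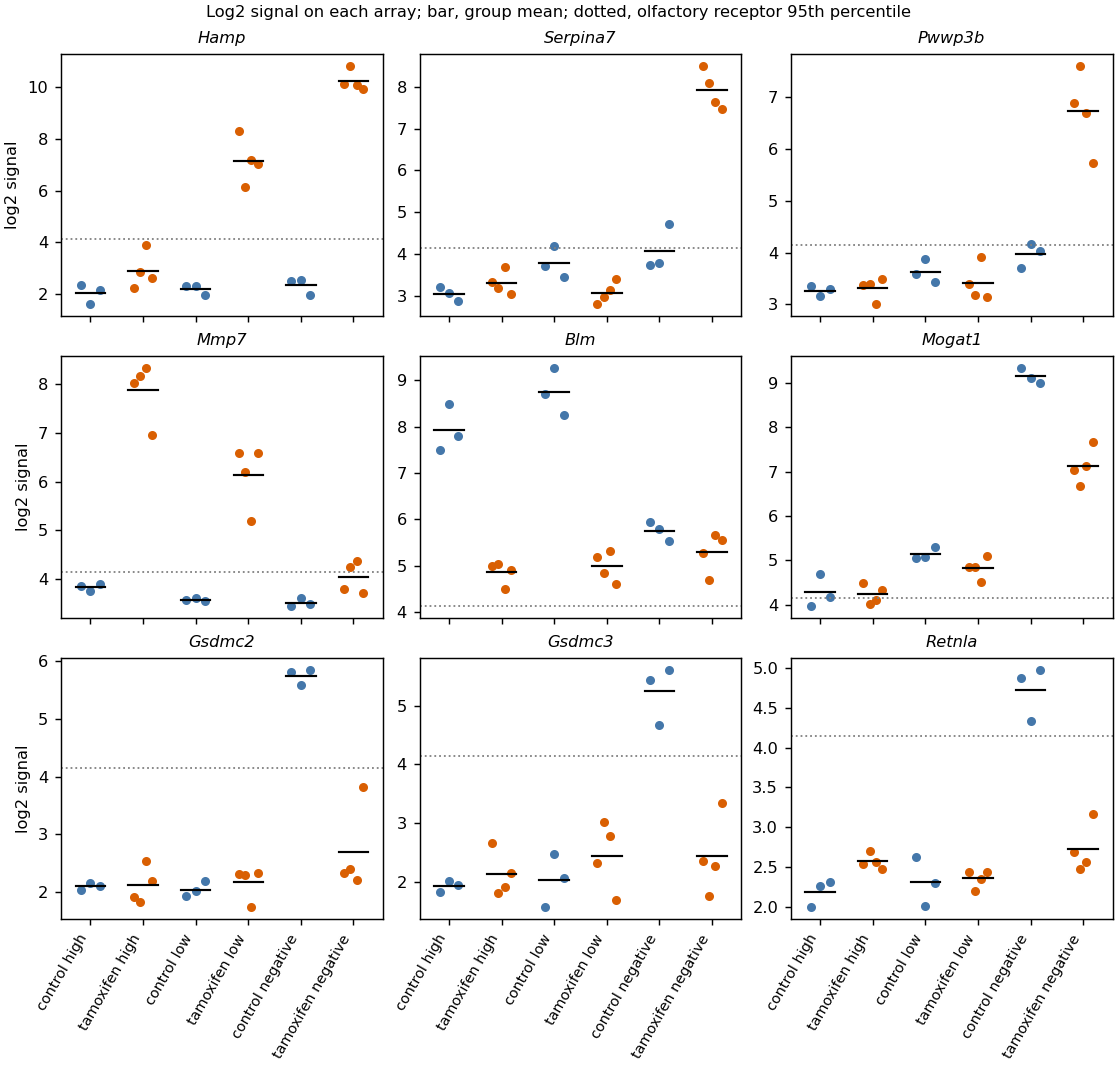
Log2 signal on every array of the 6 sorted groups (blue, control; orange, tamoxifen; bar, group mean) for the 9 genes whose difference was called in every fit with 1 array left out. The dotted line is the olfactory receptor 95th percentile (4.14); Hamp, Serpina7 and Pwwp3b rise above it in tamoxifen negative cells, and Gsdmc2, Gsdmc3 and Retnla fall below it there.

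The largest fall in negative cells among the 55 genes was that of Mcpt2. This granule chymase of mucosal mast cells was at 8.50, 8.87 and 7.58 in control negative cells and at 4.59, 4.15, 5.79 and 5.59 in tamoxifen negative cells. Every high array was near background, between 1.87 and 3.11. Mcpt2 fell 9.76-fold in negative cells (adjusted p = 0.00013), and the difference was 3.52 (SE 0.58, adjusted p = 0.011), called in 13 of the 14 fits (adjusted p = 0.062 without control negative 2). Cpa3, the carboxypeptidase stored in mast cell granules, was at 6.12, 6.08 and 5.06 in control negative cells and at 3.64, 3.17, 4.28 and 4.42 after tamoxifen, with all high arrays near background. It fell at least 3.06-fold in negative cells (difference 1.93, SE 0.38, adjusted p = 0.04, called in 7 of the 14 fits, weakest without control negative 1 at 0.14, adjusted p = 0.065 with sorting run as a term).

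The other mast cell markers gave a mixed picture. Of the 9 measured, Cpa3 and Mcpt2 passed the test of the difference, 5 fell in negative cells by the test there, and the median difference of the list was 1.22. Mcpt1, close in sequence to Mcpt2, had a difference of 2.54 (adjusted p = 0.25), Tpsb2, a tryptase, one of 1.51 (adjusted p = 0.059), and Cma1, another chymase, one of 1.22 (adjusted p = 0.11). Probes for Mcpt1 and Mcpt2 may not fully separate them. Mcpt4, Fcer1a, Cma1 and Ms4a2 were near background in all 4 groups. Kit, the receptor that mast cells need, was highest in high cells, with a mean of 9.11 in control and 7.72 after tamoxifen (adjusted p = 0.069). The mean of the list ran from 4.77 to 5.56 on control negative arrays, from 3.49 to 4.34 on tamoxifen negative arrays and from 3.21 to 3.65 on all high arrays. The wider immune list had 0 called differences by limma among 12 measured genes (1 at an unadjusted p under 0.05), with a median of -0.15.

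Gsdmc2 and Gsdmc3, gasdermins of the family whose cleaved forms open pores in membranes, fell from above background to near it. Gsdmc2 was at 5.81, 5.59 and 5.86 in control negative cells and at 2.32, 2.39, 2.21 and 3.81 after tamoxifen. Gsdmc3 was at 5.44, 4.67 and 5.62 in control negative cells and at 2.36, 1.76, 2.27 and 3.34 after tamoxifen. No high array of either gene was above 2.67. Tamoxifen negative 4 was the highest of its group for both, and was still below every control negative array. The falls in negative cells were at least 3.05-fold and 2.14-fold, and the differences were 3.08 (SE 0.40, adjusted p = 0.0007) and 3.01 (SE 0.48, adjusted p = 0.01), both called in all 14 fits. These genes are close copies and may share probes. Gsdmc, looked at after these values were seen, was near background in all 4 groups and differed by 0.20 (adjusted p = 0.90).

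Retnla, a secreted resistin-like protein linked to type 2 immune responses, was at 4.87, 4.33 and 4.98 in control negative cells and at 2.69, 2.48, 2.56 and 3.17 after tamoxifen. In high cells it was at 2.00, 2.27 and 2.31 in control and at 2.54, 2.71, 2.56 and 2.48 after tamoxifen, all near background. The difference was 2.39 (SE 0.26, adjusted p = 9.7e-05), called in all 14 fits. Retnlb and Retnlg, its relatives, differed by -0.06 and -0.44 and were not called.

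Mogat1, Pla2g4c, Ldhb and Oat encode metabolic enzymes and fell in negative cells. Of the 13 measured genes on the fatty acid and fuel choice list, 2 were called higher there and 0 lower, with a median change of 0.19. Mogat1, a monoacylglycerol acyltransferase, was at 9.35, 9.11 and 9.0 in control negative cells and at 7.05, 6.67, 7.13 and 7.67 after tamoxifen, a 4.06-fold fall. It stayed between 3.97 and 4.69 in high cells, so its gap between populations shrank but did not close (difference 1.97, SE 0.30, adjusted p = 0.0052, called in all 14 fits). Pla2g4c, a cytosolic phospholipase, went from 6.83 to 5.10 in negative cells (difference 2.08, SE 0.43, adjusted p = 0.047, called in 6 of the 14 fits). Ldhb, the heart-type lactate dehydrogenase subunit, fell 2.37-fold in negative cells, from 8.32 to 7.08, and in high cells was at 6.98 and 7.25 (difference 1.50, SE 0.26, adjusted p = 0.017, called in 11 of the 14 fits). Oat, ornithine aminotransferase, fell 2.33-fold in negative cells, from 9.37 to 8.15, beside 8.14 and 8.16 in high cells (difference 1.23, adjusted p = 0.046, called in 3 of the 14 fits). Cfap69, a protein of cilia and flagella, fell 4.26-fold in negative cells, from 7.38 to 5.29 (difference 2.28, SE 0.40, adjusted p = 0.02, called in 11 of the 14 fits). Habp2, a plasma serine protease, fell 2.33-fold in negative cells (difference 1.19, adjusted p = 0.047, called in 4 of the 14 fits), and Pdzd2 2.2-fold (difference 0.99, adjusted p = 0.028, called in 5 of the 14 fits).

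Markers of mucous neck cells were lower in the same samples. Their mean over 7 genes ran from 9.92 to 10.23 on control negative arrays and from 7.93 to 8.94 on tamoxifen negative arrays. On high arrays it ran from 8.64 to 10.41 in control and from 8.34 to 10.19 after tamoxifen, which overlap. The median difference over the list was 1.36 and 0 members passed limma's test of the difference (3 at an unadjusted p under 0.05), while 3 fell in negative cells by the test there, among them Muc6, the gland mucin, by 2.52 (adjusted p = 0.038) and A4gnt, which caps gland mucins, by 3.70 (adjusted p = 0.002). The part of this change in the falls listed for negative cells was not tested.

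Genes that rose in high cells were led by Dmbt1 and Mmp7, both on a list of metaplasia and injury genes. Mmp7, the epithelial metalloproteinase matrilysin, was at 3.85, 3.75 and 3.90 in control high cells and at 8.03, 8.16, 8.33 and 6.95 after tamoxifen. In negative cells it was at 3.45, 3.60 and 3.48 in control and at 3.80, 4.24, 4.37 and 3.72 after tamoxifen, with both group means near background. Mmp7 rose at least 13.2-fold in high cells (adjusted p = 1.9e-07), and the difference was 3.51 (SE 0.43, adjusted p = 0.0004), called in all 14 fits. A dimmer second probe set for Mmp7 differed by 0.71 in the same direction. In low cells Mmp7 went from a mean of 3.58 to 6.14.

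Dmbt1, a secreted scavenger receptor protein of mucosal defence, was at 4.23, 5.39 and 5.95 in control high cells and at 10.55, 10.45, 10.24 and 8.88 after tamoxifen. In negative cells it was already at 9.0, 8.95 and 9.44 in control and at 9.98, 10.31, 10.45 and 10.05 after tamoxifen. After tamoxifen the high and negative arrays overlapped, and the gap of -3.94 between the population means in control became -0.17. Dmbt1 rose 28.7-fold in high cells (adjusted p = 1.4e-05) and had a change of 1.07 (SE 0.49, adjusted p = 0.38) in negative cells. The difference was 3.77 (SE 0.70, adjusted p = 0.023), called in 7 of the 14 fits and weakest without control negative 3 (adjusted p = 0.081).

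Kitl, the ligand of the receptor Kit, was at 4.16, 5.57 and 6.33 in control high cells and at 7.83, 8.19, 7.15 and 7.57 after tamoxifen. In negative cells it was at 8.0, 7.70 and 8.07 in control and at 6.95, 7.04, 7.65 and 7.71 after tamoxifen. The high groups did not overlap and the negative groups did. Kitl rose 5.03-fold in high cells (adjusted p = 0.0018), with a difference of 2.92 (SE 0.53, adjusted p = 0.021) called in 9 of the 14 fits and weakest without control negative 1 (adjusted p = 0.08). Control high 1 was its lowest array, more than 1 unit under the next.

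The other genes that rose in high cells also had a control level below that of negative cells. The difference that picked these genes includes the control levels and so favours this pattern, and its share over all genes was not counted. Cxadr, a junction protein and virus receptor, rose 2.69-fold in high cells, from 7.27 to 8.69, and was at 8.84 and 8.57 in negative cells (difference 1.70, SE 0.31, adjusted p = 0.022, called in 8 of the 14 fits). Rflnb, a filamin-binding protein, rose 3.2-fold, from 5.93 to 7.61, and was at 9.59 and 9.37 in negative cells (difference 1.90, SE 0.40, adjusted p = 0.047, called in 3 of the 14 fits). Oit1 rose 3.08-fold, from 5.43 to 7.05, and was at 10.66 and 9.91 in negative cells (difference 2.37, SE 0.48, adjusted p = 0.046, called in 3 of the 14 fits). Rbm45, an RNA-binding protein, rose 2.11-fold (difference 1.26, adjusted p = 0.021, called in 10 of the 14 fits), and Psrc1, a microtubule-associated protein, rose 1.52-fold (difference 0.99, adjusted p = 0.043, called in 5 of the 14 fits). The predicted gene Gm13056 rose at least 2.05-fold. Of the 9 genes that rose in high cells, Mmp7 alone had a higher control mean in high than in negative cells. All 9 had a higher mean after tamoxifen in low cells as well, with a median change of 1.32. The share of all genes with a higher mean in tamoxifen low cells was not counted.

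**Figure D3:**
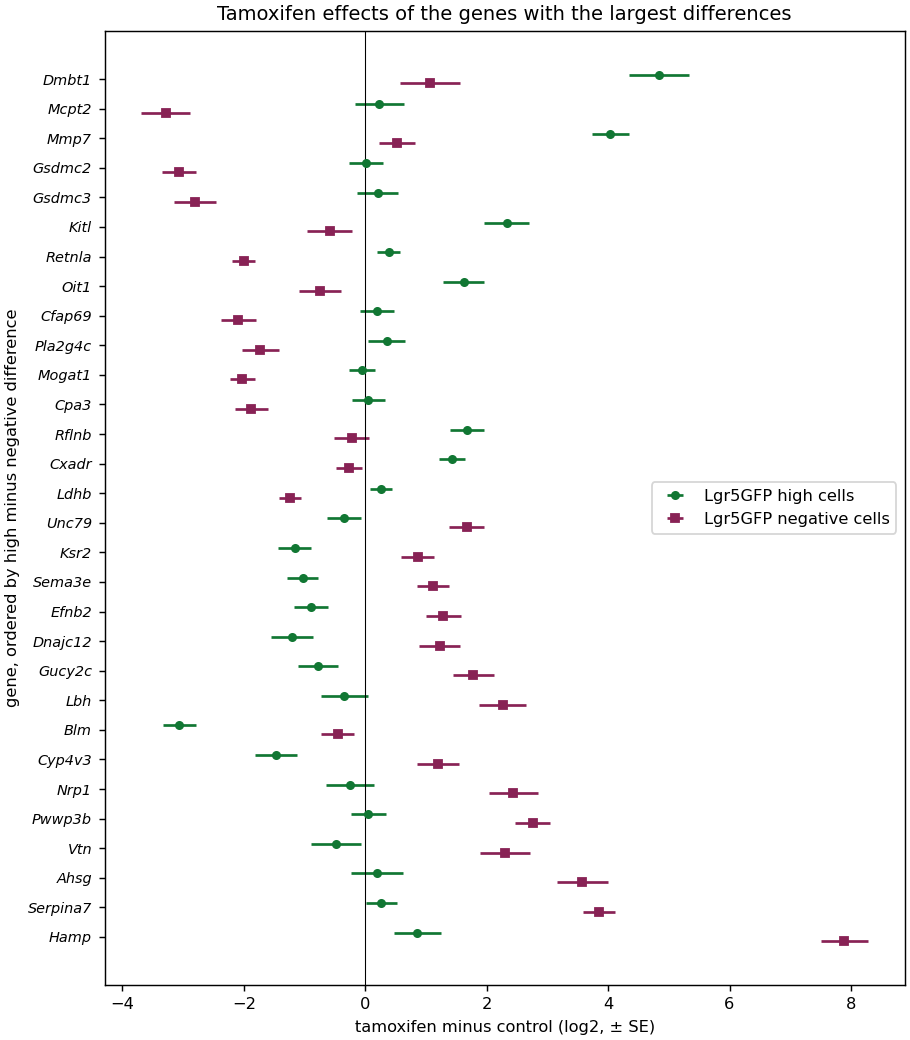
Tamoxifen minus control (log2, bars ± SE from the limma fit) in Lgr5GFP high cells (green circles) and Lgr5GFP negative cells (purple squares) for the 30 called genes named by rule, ordered by the difference. At the top the high cells lie to the right (Dmbt1, 4.84 against 1.07), and at the bottom the negative cells do (Hamp, 7.89 against 0.86).

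Blm led the genes that fell in high cells. It encodes the Bloom syndrome helicase, which resolves recombination intermediates. The high arrays read 7.50, 8.50 and 7.81 in control and at 5.00, 5.05, 4.50 and 4.92 after tamoxifen. In negative cells it was at 5.95, 5.79 and 5.53 in control and at 5.27, 4.70, 5.67 and 5.56 after tamoxifen. The control excess of high cells was gone after tamoxifen, with a gap of 2.18 in control and -0.43 after. Blm fell 8.37-fold in high cells (adjusted p = 2.5e-06), and the difference was -2.61 (SE 0.38, adjusted p = 0.0044), called in all 14 fits. In low cells Blm went from a mean of 8.74 to 5.00. The S phase list of 19 measured genes had a median difference of 0.29 and a median change of 0.14 in high cells.

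The other genes that fell in high cells were likewise higher there than in negative cells before treatment. The difference that picked them favours this pattern too, and its share over all genes was not counted. Cyp4v3, a cytochrome P450 of fatty acid hydroxylation, went from 8.52 to 7.05 in high cells and from 5.41 to 6.61 in negative cells (difference -2.66, SE 0.49, adjusted p = 0.022, called in 9 of the 14 fits). Ksr2, a scaffold of the MAPK cascade, fell at least 1.92-fold in high cells (difference -2.02, SE 0.38, adjusted p = 0.028, called in 5 of the 14 fits). Slc38a5, a glutamine transporter, fell 2.58-fold, from 6.97 to 5.60, against 5.37 and 5.49 in negative cells (difference -1.49, adjusted p = 0.047, called in 2 of the 14 fits). Ttc7b fell 1.81-fold (difference -1.39, adjusted p = 0.021, called in 10 of the 14 fits). For 7 of the 7 genes the control mean was higher in high cells, and 0 of the 7 had a higher mean after tamoxifen in low cells, where the median change was -1.07. No share over all genes was counted for the low cells.

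Sema3e was the gene called in both populations with opposite signs. It encodes a secreted semaphorin that acts through plexin D1. The high arrays read 5.83, 5.18 and 5.15 in control and at 4.53, 3.96, 5.06 and 3.88 after tamoxifen. In negative cells it was at 3.58, 3.61 and 3.55 in control and at 4.65, 4.97, 5.07 and 4.08 after tamoxifen. Neither pair of groups overlapped, although tamoxifen high 3 came within 0.1 of a control array. It fell 2.05-fold in high cells (adjusted p = 0.035) and rose at least 1.46-fold in negative cells (adjusted p = 0.025), with a difference of -2.14 (SE 0.37, adjusted p = 0.017) called in 11 of the 14 fits and weakest without control negative 2 (adjusted p = 0.062). With sorting run as a term Sema3e was just outside the threshold (adjusted p = 0.055). Dnajc12, a co-chaperone, and Sgms2, a sphingomyelin synthase, had the same signs, with changes of -1.20 and -0.73 in high cells and 1.22 and 0.85 in negative cells. Neither was called in a population by itself, and their differences were -2.43 (SE 0.49, adjusted p = 0.041) and -1.58 (SE 0.32, adjusted p = 0.046).

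Several lineage and injury genes of the panel moved without a called difference. Sprr1a, a cornified envelope protein induced by injury, rose in both populations, by 4.72 in high cells and 5.22 in negative cells (difference -0.50, SE 0.49, adjusted p = 0.91). Pdk4, which restrains pyruvate oxidation, rose by 4.04 and 3.78 (difference 0.26, SE 1.08, adjusted p = 0.99). Clu, the chaperone clusterin, rose by 1.08 and 0.74 (difference 0.34, SE 0.20, adjusted p = 0.74). Atp4a, the catalytic subunit of the parietal proton pump, fell by 2.92 in high cells and by 1.95 in negative cells (difference -0.97, SE 0.64, adjusted p = 0.80). S100a6, of the calcium-binding S100 family, rose by 4.11 in high cells (adjusted p = 1.4e-05), and its difference of 2.76 lay just outside the threshold (adjusted p = 0.054). Among chief cell genes, Pgc, the pepsinogen C gene, had changes of 0.03 in high and -0.06 in negative cells, while Bhlha15, the secretory transcription factor Mist1, fell by 1.64 in high cells (adjusted p = 0.018) with a change of -0.54 in negative cells (difference -1.10, SE 0.51, adjusted p = 0.59). Esr1, the estrogen receptor, differed by 0.20 (SE 0.25, adjusted p = 0.95). With SEs up to 1.08, the absence of a call does not show that effects were equal.

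Across 32 gene lists, called differences occurred in 2, with Cpa3 and Mcpt2 on the mast cell list and Dmbt1 and Mmp7 on the metaplasia and injury list. The metaplasia and injury list had a median difference of 0.20, with 9 of its 20 genes called higher in high cells and 6 in negative cells. The parietal cell list (18 genes) had a median difference of 0.32, the G2 and M phase list (18 measured) 0.43, the tuft cell list (11) -0.22 and the pancreatic acinar list (6 measured) -0.84. The last of these had 1 member called higher in negative cells and 0 with a called difference by limma (3 at an unadjusted p under 0.05). The tuft median turned to 0.37 without tamoxifen high 1.

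**Figure D4:**
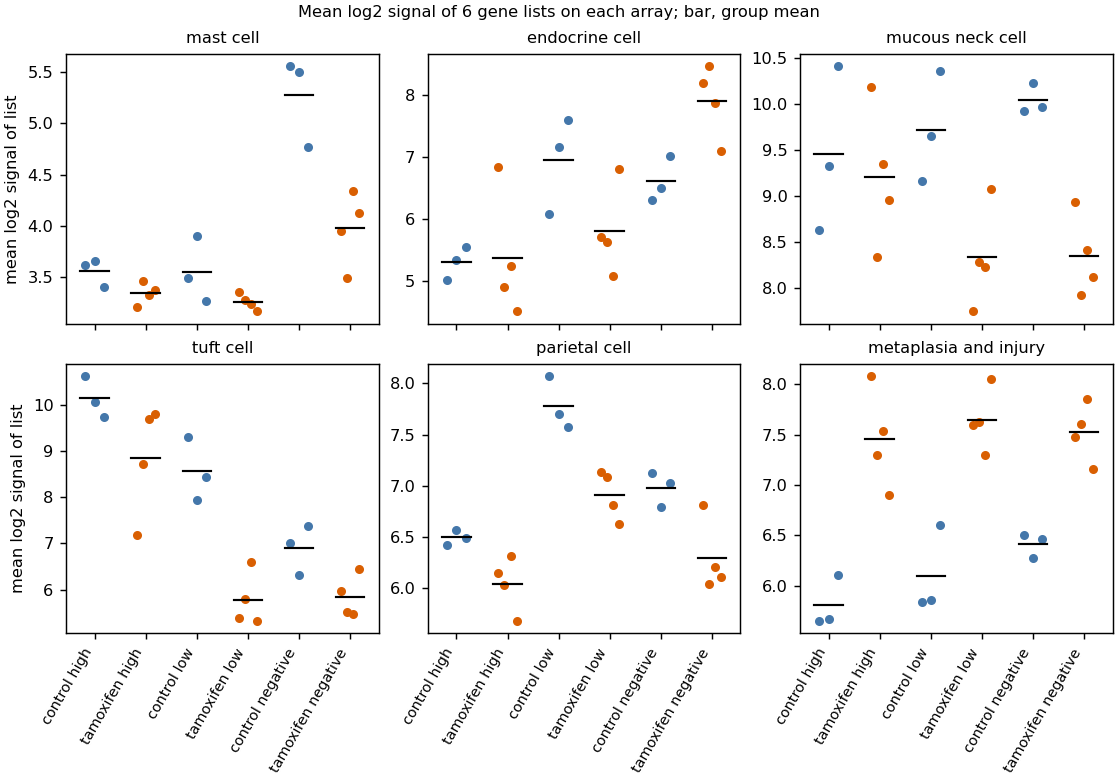
Mean log2 signal over 6 gene lists on every array of the 6 sorted groups (blue, control; orange, tamoxifen; bar, group mean). In negative cells with tamoxifen, mast cell and mucous neck cell markers drop without overlap. Metaplasia and injury genes rise there without overlap, and endocrine markers rise with ranges only narrowly apart. The array tamoxifen high 1 lies above its group for endocrine markers and below it for tuft markers.

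The threshold cut through a continuous run of genes. Just inside it lay Pcdhb17 (adjusted p = 0.0474) and just outside Arc (0.0505), Prima1 (0.051), Cpe (0.0528, difference -3.27), Mrps35 (0.0532) and Plet1 (0.054). The count of 55 also depended on which arrays were used. With 1 array left out, it ran from 9 without control negative 2 to 267 without tamoxifen negative 4. It was 132 without tamoxifen high 4, 35 without tamoxifen negative 1, 32 without tamoxifen high 2, 25 without control negative 3, 23 without tamoxifen negative 3, 21 without control high 1, 19 without tamoxifen negative 2, 14 without control high 2 and 13 without control negative 1. All 55 remained called without tamoxifen high 4 or tamoxifen negative 4. Over the 14 fits, 9 genes (Mmp7, Gsdmc2, Gsdmc3, Retnla, Mogat1, Hamp, Serpina7, Pwwp3b and Blm) kept their call in every one, and 32 of the 55 kept it in no more than 7. A fit on the 14 arrays alone, with fewer arrays to estimate the spread, called 16 genes, 13 of them among the 55. With sorting run as a term, 38 of the 55 were called. The 17 that were not were Ahsg, Cpa3, Efnb2, Sema3e, Il22ra1, Ttr, Ptf1a, Ahi1, Clip3, Abi2, Pcdhb17, Sgms2, Slc38a5, Psrc1, Pdzd2, 1810020O05Rik and Gm19505, with adjusted p from 0.055 to 0.12. With the Replicate number as a term, Vtn, Pcdhb17 and Slc38a5 were not called (adjusted p = 0.055, 0.056 and 0.064). That term puts control and tamoxifen arrays with the same Replicate number in a shared block. Their titles carry different run numbers, and the labels do not say that they belong together. No called gene changed sign in any setting tried.

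**Figure D5:**
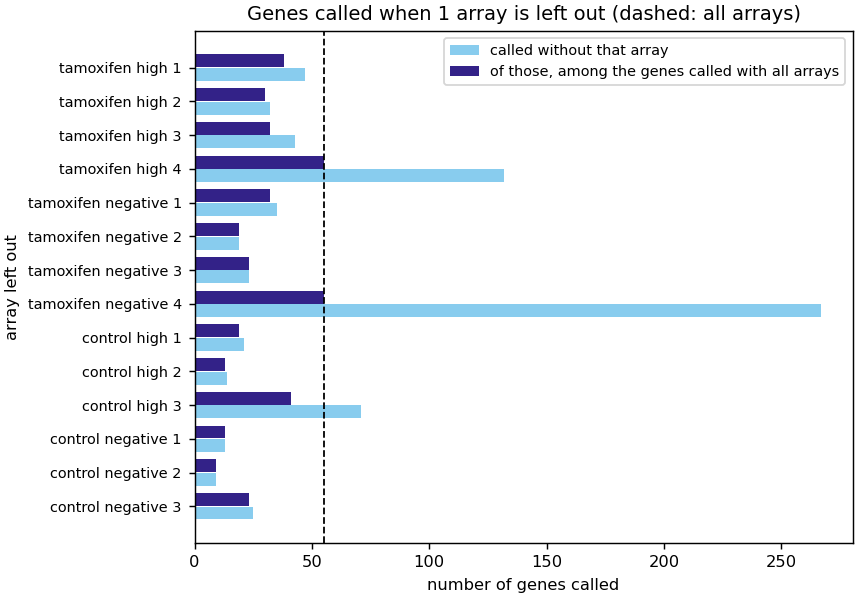
Number of genes with a called difference when each of the 14 arrays is left out in turn (light bars) and how many of those are among the 55 called with all arrays (dark bars; dashed line, 55). Leaving out a control negative array gives 9 to 25 genes, and leaving out tamoxifen negative 4 gives 267.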

How the data were processed

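The authors deposited 1 table of log2 signal for 41345 probe sets on 21 arrays. The submitters' processing notes name RMA, the package oligo, limma (3.26.8) and R (3.2.3) without their roles, and the genome build was not given in the sources used here. The platform table listed 25335 probe sets, 23521 with exactly 1 gene, and 23328 symbols were updated by RefSeq gene number. For the 1082 genes with several probe sets, the one with the highest mean over 21 arrays was kept, leaving 22180 genes with no filter on level. Means of 6 groups were fitted with limma 3.58.1 in R 4.3.3 (lmFit, eBayes, 15 residual and 5.27 prior degrees of freedom), and the difference of the 2 tamoxifen effects was tested two-sided with Benjamini-Hochberg adjustment over all genes (called under 0.05). Every adjusted p in the text is from this limma fit unless another setting is named. SE is from the fit and SD from the arrays. Named genes were the 15 largest called differences each way with a group mean above the olfactory receptor 95th percentile (predicted and receptor family genes left out), called genes with opposite called effects, called members of lists and a panel of 29. The comparison, the gene lists and the panel were chosen with earlier results of these data known, so lists are described and not tested. The fit was tested on simulated data. Run and replicate numbers were checked for pairing by the correlation of deviations from group means: same-run correlations ran from 0.09 to 0.17 in control and from -0.16 to 0.07 in tamoxifen arrays, and same-Replicate correlations in tamoxifen arrays from -0.08 to 0.32. Not every pair was over 0.1, so the fit kept no block, and both numbers were tried as blocks. The alternatives tried are in the closing section.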

Additional observations from a re-analysis of the deposited data

Results flagged for a closer look

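The difference test itself returned 55 genes. Those named for it, each because the tamoxifen effect in high cells differed from that in negative cells, had these differences (log2): above 0, Dmbt1 3.77, Mcpt2 3.52, Mmp7 3.51, Gsdmc2 3.08, Gsdmc3 3.01, Kitl 2.92, Retnla 2.39, Oit1 2.37, Cfap69 2.28, Pla2g4c 2.08, Mogat1 1.97, Cpa3 1.93, Rflnb 1.90, Cxadr 1.70 and Ldhb 1.50. Those below 0 were Hamp -7.04, Serpina7 -3.58, Ahsg -3.38, Vtn -2.78, Pwwp3b -2.71, Nrp1 -2.69, Cyp4v3 -2.66, Blm -2.61, Lbh -2.60, Gucy2c -2.56, Dnajc12 -2.43, Efnb2 -2.18, Sema3e -2.14, Ksr2 -2.02 and Unc79 -2.02.

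A single tamoxifen array lay far from the other 3 of its group in 12 of 174 groups tested (6.9%), by the gap to its neighbour as a share of the group's range. Chance flags about 1 in 20 groups. In tamoxifen high cells, Mcpt2 was at 3.11 on array 2 against 2.29 to 2.34 on the others (ratio 0.943), and Lbh at 9.58 on array 2 against 8.46 to 8.59 (0.883). Vtn was at 5.21 on array 4 against 4.36 to 4.50 (0.834), Atp4b at 8.59 on array 3 against 5.01 to 5.48 (0.868), and Tff2 at 12.63 on array 1 against 11.50 to 11.64 (0.879). The mean of the interferon response list was 5.02 on array 1 against 6.51 to 6.67 (0.904). In tamoxifen negative cells, array 4 was apart for Gsdmc2, at 3.81 against 2.21 to 2.39 (0.887), for Gucy2c, at 5.60 against 6.87 to 7.03 (0.889), for Pdk4, at 6.48 against 9.37 to 9.48 (0.961), and for the mean of the unfolded protein response list, at 8.24 against 8.39 to 8.40 (0.953). The mean of the surface pit list was 9.74 on array 2 against 10.01 to 10.06 (0.865), and that of the endothelial list 3.53 on array 3 against 3.69 to 3.71 (0.841), which is near background.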

How the results depend on the processing

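Called differences numbered 55 in the fit reported and 52 to 75 under cyclic loess, averaged probe sets, a trended robust prior, the 2 filters on level, the 2-fold limit and both fixed blocks. They numbered 172 with array weights, 16 on the 14 arrays alone and 84 with sorting run as a random replicate block. Effects called in high cells (606) numbered 296 on the 14 arrays, 335 at 2-fold or more and 1128 with the Replicate number as a fixed replicate block. Effects called in negative cells (515) numbered 1621 with array weights, 284 on the 14 arrays and 845 with that block. With each array left out in turn, the counts ran from 9 to 267 for the difference, from 215 to 1702 in high cells and from 176 to 883 in negative cells. Sorting run as a fixed replicate block gave 75 differences, 38 of them among the 55, and could not be fitted for a single population, since run and treatment are nested. Whether the numbers pair arrays is uncertain. All 6 control arrays correlated best with their own run and 0 of 6 tamoxifen arrays did, while by Replicate number 6 of 6 control and 5 of 8 tamoxifen arrays did, a hint from the data and not the design. Of the 55 genes, 12 were called in every other setting that tested them (10 settings, or 9 for Gsdmc2, Gsdmc3 and Retnla, which a filter on level left out) and 0 changed sign. Causes were not tested. Low genes are limited by background, and 1 called gene, Gm19505, had all 4 means near it. Of the 13 genes that fell in negative cells, 6 were near background in both high groups, where a fall could not be seen. Of the 23 that rose in negative cells, 8 were near background in both high groups.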
